A study of Mus musculus with 8 samples.

Results

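The 10 genes described here, Nlrc5, Tap1, Tap2, Tapbp, B2m, Erap1, H2-K1, H2-D1, H2-Q4 and H2-T23, serve antigen presentation by major histocompatibility complex (MHC) class I. They were chosen by name as genes of this pathway, with earlier results of these data known. All 10 were present among the 12211 rows of the count table, and all 10 had enough counts to be tested. RNA was sequenced from mouse embryonic fibroblasts (connective tissue cells of the embryo) in 4 libraries labelled PUS10KO (genotype PUS10 KO) and 4 control libraries (genotype WT), numbered 1 to 4 in each genotype. All were grown in the same serum-containing medium with penicillin and streptomycin, and no treatment is named. What the strain and embryo age were, how the gene was disrupted, and whether the libraries of a genotype come from 1 clone or from separate cultures is not stated by the labels, and each p-value given here therefore measures nothing more than the spread among the libraries, possibly technical. PUS10 converts uridine to pseudouridine in tRNA and other RNAs, and the series title links it to tRNA fragments and retrotransposon-driven inflammation.

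MHC class I molecules display peptides cut from the cell's own proteins to cytotoxic T cells. Peptides made by the proteasome are pumped into the endoplasmic reticulum by the TAP transporter, trimmed there, and loaded with the help of tapasin onto a heavy chain that pairs with beta-2-microglobulin. Nlrc5 is the class I transactivator, which acts at the promoters of heavy chain genes and of several genes of the loading machinery, and interferons raise most of the pathway. Fibroblasts, like nearly all nucleated cells, carry class I molecules at a low resting level.

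Total counts ran from 17561114 to 24563499 per library. Pus10 had 11.5 to 15.2 CPM (depth-scaled counts, with TMM factors for the library totals) in the PUS10KO libraries, against 40.1 to 51.8 CPM in the control libraries (log2 fold change -1.74 with a standard error, SE, of 0.15). Its adjusted p was 0.000189 by the quasi-likelihood test of edgeR, adjusted after Benjamini and Hochberg over 11909 genes. The Y-linked gene Eif2s3y had 1197 to 1757 counts in the PUS10KO libraries and 0 counts in each control library, so sex chromosome content and genotype cannot be told apart in any result here. All 12 fibroblast markers examined had counts, with summed levels of 11160 to 17230 CPM in PUS10KO and 17480 to 21690 CPM in control. By edgeR 4 of the 12 fell in PUS10KO and 0 rose, where 7.11% of all genes fell. DESeq2 and limma voom each called 4 that fell and 1 that rose. The surface marker Thy1 averaged 0.024 ± 0.028 CPM in PUS10KO and 21.8 ± 0.92 CPM in control (SD, n = 4 each). Pdgfra, Lum and S100a4 were higher in PUS10KO without passing by edgeR (log2 fold change 1.02, 0.61 and 0.27, adjusted p = 0.0605, 0.612 and 0.449). Of 10 macrophage and leukocyte markers 3 were measured, Cd68, Csf1r and Lyz2, with summed levels of 2.51 to 6.67 CPM in PUS10KO and 5.0 to 9.05 CPM in control. None of the 8 markers of dendritic cells and lymphocytes had a row in the analysed table. The 1 epithelial marker measured of 6, Krt19, fell, at 11.5 to 20.7 CPM in PUS10KO and 73.0 to 221 CPM in control, and 2 of 6 endothelial markers summed to 1.19 to 3.12 CPM in PUS10KO and 2.52 to 4.92 CPM in control. What part these differences have in the results for class I genes was not tested. These are bulk libraries, in which fewer cells of a type and less RNA per cell cannot be told apart.

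In PUS10KO, 6 of the 10 class I genes rose, Nlrc5, Tap1, Erap1, H2-K1, H2-D1 and H2-Q4, none fell, and Tap2, Tapbp, B2m and H2-T23 did not pass the test (adjusted p threshold 0.05). Over all genes tested 5.90% rose, 7.11% fell and 13.0% were called in either direction. The median log2 fold change of the 10 genes was 1.24, beside 0.0086 over all genes tested. For 7 of the 10 the PUS10KO values lay wholly above the control values, which was so for 9.70% of all genes, while 20.3% had no overlap in either direction. Because the 10 genes were chosen with earlier results of these data known, comparing them with all genes is no independent test. The libraries of a number deviated together, and with the replicate number as a block all 10 genes rose, where 19.1% of all genes rose and 39.0% were called. So did all 10 in the authors' deposited normalized values fitted with that block, which called 39.2% of all genes. Without the block, DESeq2 called 8 of the 10 (19.9% of all genes) and limma voom 6 (12.7%). Fits without control 3 called 4 of the 10, where 9.49% of all genes were called; the 2 that lost their call were Erap1 and H2-D1.

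**Figure D1:**
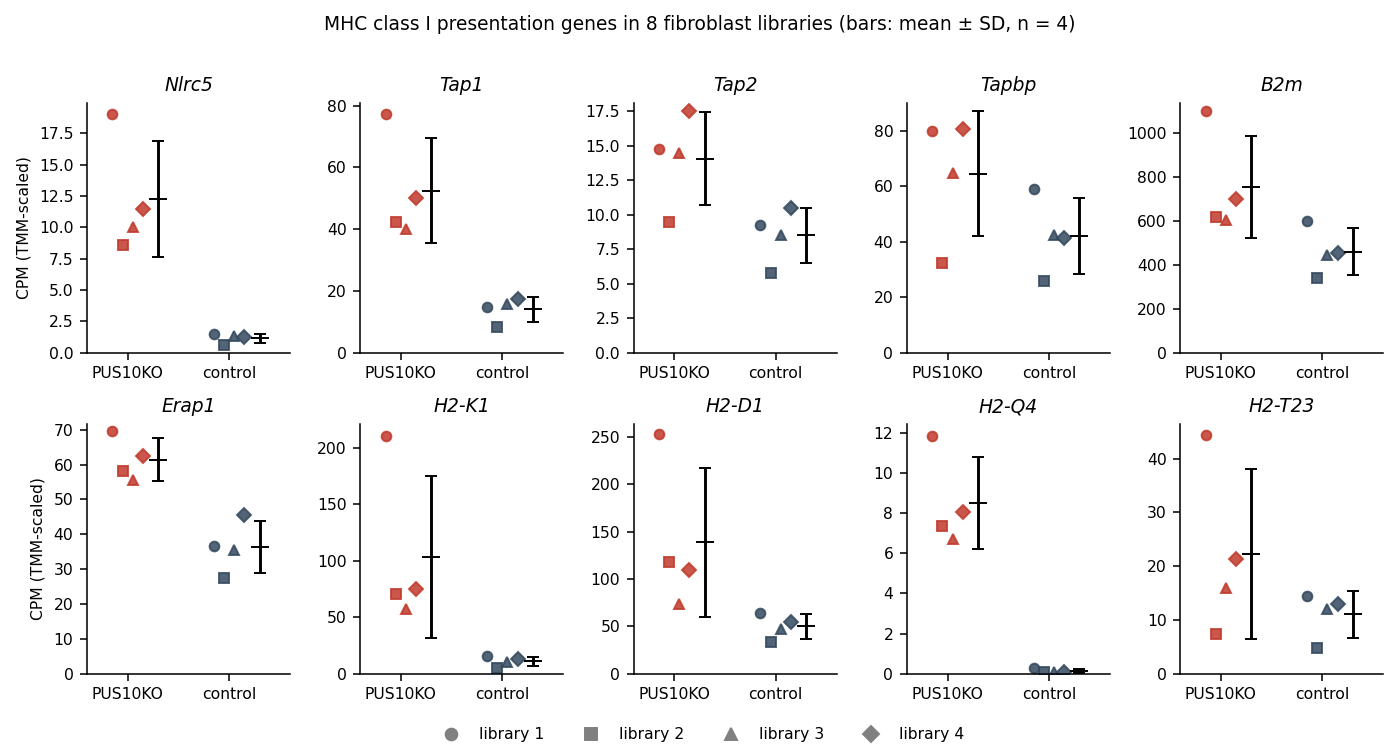
Level of each of the 10 class I genes (y axis, TMM-scaled CPM, from 0) in the 4 PUS10KO libraries (left, red) and the 4 control libraries (right, blue); marker shapes give the library number and bars the mean ± SD. PUS10KO 1 is the highest library for 8 of the genes, and Tap2, Tapbp and H2-T23 are the genes whose genotypes overlap.

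Nlrc5, the transactivator, was scarce in control fibroblasts and rose in PUS10KO. It had 19.0, 8.59, 10.05 and 11.4 CPM in PUS10KO libraries 1 to 4, against 1.46, 0.60, 1.29 and 1.25 CPM in control libraries 1 to 4. The lowest PUS10KO library thus stood well above the highest control library. The ratio of the means was 10.7 (log2 fold change 3.40, SE 0.36, adjusted p = 0.000623), from a sum of 1010 PUS10KO and 92 control counts. The gene lies on chromosome 8 (94434356 to 94527272, plus strand, GRCm38), and no omission of 1 library ended the call, the log2 fold change then being 3.11 to 3.54. In the authors' deposited normalized values it was 1.72.

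Of the genes of peptide transport, trimming and loading, the TAP subunit gene Tap1 and the trimming peptidase gene Erap1 rose, while Tap2 and tapasin (Tapbp) did not pass the test. Tap1 had 77.5, 42.4, 40.2 and 50.1 CPM in PUS10KO libraries 1 to 4, against 14.9, 8.15, 15.6 and 17.3 CPM in control libraries 1 to 4 (log2 fold change 1.90, SE 0.29, adjusted p = 0.00312). Tap2, whose product forms the transporter together with that of Tap1, had 14.8, 9.47, 14.5 and 17.5 CPM in PUS10KO and 9.25, 5.80, 8.55 and 10.5 CPM in control (log2 fold change 0.72, SE 0.24, adjusted p = 0.0916, or 0.00134 with the replicate block). The genotypes of Tap1 did not overlap, while PUS10KO 2 lay within the control range for Tap2. DESeq2 also called Tap2 (adjusted p = 0.0345).

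The counts of the 2 transporter genes can be compared within a library without any scaling. The ratio of Tap1 to Tap2 counts was 5.25, 4.48, 2.77 and 2.86 in PUS10KO libraries 1 to 4, against 1.62, 1.41, 1.83 and 1.65 in control libraries 1 to 4. It was higher in every PUS10KO library (exact permutation test, two-sided, p = 0.0286, the smallest that 4 against 4 libraries allow; 0.0343 after Benjamini-Hochberg adjustment over 6 ratios, which were chosen after the values had been seen). The excess was larger in libraries 1 and 2 than in 3 and 4.

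Erap1, the endoplasmic reticulum aminopeptidase that trims peptides to class I length, had 69.5, 58.1, 55.6 and 62.6 CPM in PUS10KO, against 36.8, 27.6, 35.6 and 45.5 CPM in control (log2 fold change 0.76, SE 0.16, adjusted p = 0.0160). Its spread between libraries was small, and the genotypes did not overlap. The call was lost without control 3 (adjusted p = 0.0522) and held in the other 7 fits that left out 1 library. Erap1 overlaps Cast on the opposite strand over 834 bases, exons included. The sources used here do not say how reads there were counted. Tapbp, which bridges the transporter and the empty heavy chain, had 80.1, 32.5, 64.7 and 80.5 CPM in PUS10KO and 59.0, 25.8, 42.2 and 41.2 CPM in control (log2 fold change 0.61, SE 0.32, adjusted p = 0.269, or 0.00440 with the replicate block). Libraries numbered 2 were the lowest of both genotypes, so that PUS10KO 2 lay below 3 control libraries. Zbtb22, a gene on the same strand whose exons overlap those of Tapbp in the annotation, differed by -0.48 on the log2 scale (adjusted p = 0.139, or 0.00342 with the replicate block, where it fell), and the sources used here do not say how reads of the overlap were counted.

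B2m, the light chain common to all class I molecules, was the most abundant of the 10 genes. It had 1098, 618, 604 and 698 CPM in PUS10KO libraries 1 to 4, against 599, 342, 442 and 454 CPM in control libraries 1 to 4. The groups did not overlap, but the lowest PUS10KO value and the highest control value were close, and the gene did not pass the test (log2 fold change 0.72, SE 0.24, adjusted p = 0.0894). It rose with the replicate block (adjusted p = 0.000740) and by DESeq2 (adjusted p = 0.0313). The gene lies on chromosome 2 (122147686 to 122153083, plus strand) and Erap1 on chromosome 13 (74639568 to 74693201, plus strand).

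The heavy chain genes differed from one another in how far they departed from control. H2-K1 and H2-D1 are the classical heavy chain genes of the reference strain, H2-Q4 belongs to the Q group, and H2-T23 encodes Qa-1, a nonclassical molecule that presents leader peptides of other heavy chains to natural killer cell receptors. Their promoters are shown because classical heavy chain genes and B2m are known to share upstream elements: NF-kB sites, an interferon-stimulated response element (ISRE), and the module with site alpha and CCAAT boxes through which Nlrc5 acts. The 200 bases before the start in RefSeq (GRCm38.p6) are given 5′ to 3′ for the 4 heavy chain genes (the upstream one of 2 listed starts for H2-K1) and B2m. Capitals mark matches, on either strand, to GGG and CCC parted by 4 bases of any kind (an NF-kB palindrome), 2 GAAA parted by 2 bases of any kind (ISRE core), GAANNGAAA (a looser ISRE, chosen after the sequences had been read), TTCNNNGAA (an interferon-gamma activated site), TGACGC (site alpha) or CCAAT.
H2-K1 (chr17:34000348-34000547, minus strand): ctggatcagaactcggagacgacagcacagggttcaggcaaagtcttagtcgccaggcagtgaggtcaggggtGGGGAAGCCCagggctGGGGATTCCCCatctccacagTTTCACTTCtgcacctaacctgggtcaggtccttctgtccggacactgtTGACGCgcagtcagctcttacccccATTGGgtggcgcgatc
H2-D1 (chr17:35262894-35263093, plus strand): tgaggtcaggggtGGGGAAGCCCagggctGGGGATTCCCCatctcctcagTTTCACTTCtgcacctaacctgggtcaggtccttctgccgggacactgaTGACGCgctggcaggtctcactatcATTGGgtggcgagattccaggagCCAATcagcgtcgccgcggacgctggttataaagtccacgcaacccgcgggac
H2-Q4 (chr17:35379417-35379616, plus strand): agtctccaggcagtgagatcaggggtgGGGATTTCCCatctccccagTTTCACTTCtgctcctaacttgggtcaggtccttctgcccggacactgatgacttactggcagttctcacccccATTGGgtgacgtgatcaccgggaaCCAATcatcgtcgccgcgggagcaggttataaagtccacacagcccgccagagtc
H2-T23 (chr17:36032702-36032901, minus strand): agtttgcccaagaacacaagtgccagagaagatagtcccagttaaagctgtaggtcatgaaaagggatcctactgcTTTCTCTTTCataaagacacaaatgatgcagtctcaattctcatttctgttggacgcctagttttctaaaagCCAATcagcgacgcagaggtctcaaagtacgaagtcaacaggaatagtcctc
B2m (chr2:122147487-122147686, plus strand): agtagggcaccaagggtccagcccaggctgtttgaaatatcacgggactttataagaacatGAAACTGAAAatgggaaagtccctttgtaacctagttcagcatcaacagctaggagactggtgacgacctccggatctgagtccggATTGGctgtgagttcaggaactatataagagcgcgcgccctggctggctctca

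Of the 10 genes 8 had a promoter in the table, Nlrc5 and Tap2 being the exceptions. Over the 250 bases before the start, the NF-kB palindrome and GAANNGAAA matched in H2-K1, H2-D1 and H2-Q4, where 10.33% and 6.31% of all 32851 promoter windows held them. GAANNGAAA was chosen after these sequences had been read, so its share of all windows is no test of its matches. H2-K1, H2-D1 and H2-Q4 carry the same letters there, TTTCACTTC, so these matches need not be independent. TGACGC matched in H2-K1 and H2-D1 (6.12% of all windows) and the ISRE core in B2m and H2-T23 (2.98%). No match to one of these motifs overlapped a match to another in the windows of these genes. CCAAT matched in 7 of 8, all except Erap1 (33.85%), and TTCNNNGAA in 0 of 8 (7.02%). A match describes these letters only. H2-T23 was the heavy chain gene of these 4 without a match to the NF-kB palindrome.

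H2-K1 had 211, 70.5, 57.2 and 75.4 CPM in PUS10KO libraries 1 to 4, against 15.4, 5.42, 10.3 and 13.0 CPM in control libraries 1 to 4. Every PUS10KO library was above every control library, and PUS10KO 1 stood far above the other 3. Its log2 fold change of 3.23 had an SE of 0.50 (adjusted p = 0.00345) and became 2.62 without PUS10KO 1 (adjusted p = 0.00237). H2-D1 had 253, 118, 74.2 and 110 CPM in PUS10KO, against 64.4, 33.4, 47.5 and 54.5 CPM in control (log2 fold change 1.47, SE 0.37, adjusted p = 0.0312). Here too the groups did not overlap, with PUS10KO 1 again the highest. Its call was lost without PUS10KO 2 or without control 2, 3 or 4 (adjusted p up to 0.0815), and its log2 fold change was 1.01 without PUS10KO 1.

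H2-Q4 was nearly silent in control fibroblasts. It had 215, 185, 159 and 149 counts in PUS10KO libraries 1 to 4, against 6, 2, 2 and 2 counts in control libraries 1 to 4. That is 8.49 ± 2.30 CPM in PUS10KO and 0.15 ± 0.095 CPM in control (SD, n = 4 each), with a log2 fold change of 5.75 (SE 0.41, adjusted p = 7.79e-05). H2-Q4 had the largest fold change of the 10 genes, on a control level set by 12 counts in all, and 1.96 in the authors' deposited normalized values. H2-T23 had 44.5, 7.48, 15.9 and 21.3 CPM in PUS10KO, against 14.6, 4.71, 12.1 and 12.9 CPM in control (log2 fold change 1.01, SE 0.53, adjusted p = 0.268). PUS10KO 2 lay below 3 of the control libraries; H2-T23 rose with the replicate block (log2 fold change 0.87, adjusted p = 0.00894), and without PUS10KO 1 and without the block its log2 fold change was 0.43.

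Reads of heavy chain genes can be split among near-identical copies, so their single values are uncertain. In the longest coding transcript of each gene (GENCODE M21), the share of 75-base windows also found in transcripts of another gene was 1.55% for H2-K1, 6.90% for H2-D1, 7.91% for H2-Q4 and 13.09% for H2-T23. It was 0% for Nlrc5, Tap1, Tap2, B2m and Erap1 and 0.99% for Tapbp. With 50-base windows the shares were 8.79% for H2-K1, 14.32% for H2-D1, 24.25% for H2-Q4 and 28.81% for H2-T23. No source used here gives the read length.

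A sum over rows is not changed by reads divided among those rows, but it is by reads given to, or dropped for, copies without a row here, such as H2-Q1, H2-Q6 and H2-Q7. The 7 class I heavy chain rows (the 4 above with H2-T22, H2-M3 and H2-M9) summed to 579, 231, 193 and 268 CPM in PUS10KO libraries 1 to 4, against 130, 69.0, 105 and 118 CPM in control libraries 1 to 4. The sum was higher in every PUS10KO library and passed the test (log2 fold change 1.59, SE 0.36, adjusted p = 0.0206), except without control 3 (adjusted p = 0.0571). H2-T22 and H2-M3, nonclassical genes tested singly, had log2 fold changes of 0.36 and 0.97 (adjusted p = 0.387 and 0.323), and H2-M3 rose with the replicate block (adjusted p = 0.00391). H2-M9 had 2, 6, 0 and 0 counts in PUS10KO, against 44, 15, 7 and 9 counts in control, too few for the filter on low counts. DESeq2, run without that filter, called H2-M9 as fallen, against the direction of the sum, where 19.9% of all genes were called.

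The make-up of heavy chain counts also differed between genotypes. H2-K1 made up 31.2% ± 3.64 of the summed counts in PUS10KO and 10.11% ± 1.72 in control, while H2-D1 made up 43.6% ± 5.59 in PUS10KO and 47.4% ± 1.99 in control (SD, n = 4 each). H2-T22 made up 12.3% ± 2.92 in PUS10KO and 27.5% ± 4.34 in control. For each H2-D1 count there were 0.83, 0.60, 0.77 and 0.69 H2-K1 counts in PUS10KO libraries 1 to 4, against 0.24, 0.16, 0.22 and 0.24 in control libraries 1 to 4. This ratio was higher in all 4 PUS10KO libraries (exact permutation test, two-sided, p = 0.0286, adjusted 0.0343). It and the next ratios were chosen after the values had been seen, so their p-values describe the groups and are no independent test. The ratio of H2-K1 to H2-T23 was 5.33 ± 2.79 in PUS10KO and 1.02 ± 0.13 in control, and that of H2-K1 to H2-Q4 was 11.3 ± 4.35 in PUS10KO and 84.3 ± 41.1 in control (exact permutation p = 0.0286 and adjusted 0.0343 for both).

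The ratio of H2-D1 to H2-T23 was 5.68, 15.8, 4.67 and 5.15 in PUS10KO libraries 1 to 4, against 4.43, 7.11, 3.94 and 4.22 in control libraries 1 to 4. The groups overlapped and the test, which does not pair the libraries, was not passed (exact permutation p = 0.343, also after adjustment), while PUS10KO was higher at each of the 4 numbers and number 2 was the highest of both genotypes. Light chain counts were lower relative to heavy chain counts in PUS10KO. B2m had 1.90, 2.68, 3.13 and 2.60 counts for each summed heavy chain count in PUS10KO libraries 1 to 4, against 4.61, 4.95, 4.23 and 3.83 in control libraries 1 to 4 (exact permutation p = 0.0286, adjusted 0.0343). All PUS10KO ratios of B2m were below all control ratios. The ratios of this paragraph too were chosen after the values had been seen, so their p-values are no independent test. These are ratios of reads, not of molecules, since the transcripts differ in length.

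**Figure D2:**
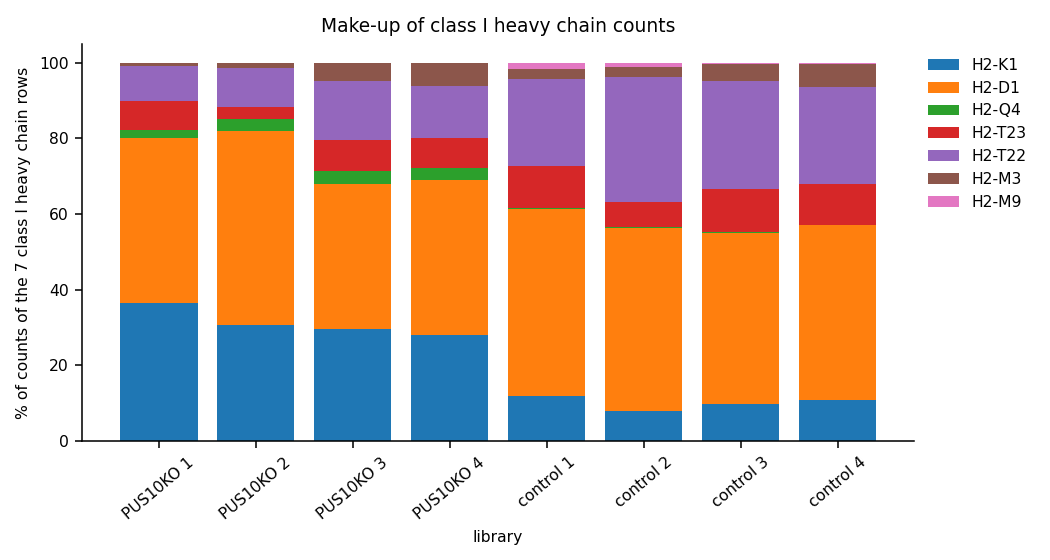
Share of each gene (y axis, %) in the summed counts of the 7 class I heavy chain rows, 1 bar per library, PUS10KO at the left and control at the right. H2-K1 takes 28.1 to 36.4% of the counts in the PUS10KO libraries and 7.85 to 11.8% in the control libraries.

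Levels between genes were compared as CPM per kilobase of annotated exon. In PUS10KO, B2m (877 ± 271) was followed by H2-D1 (53.8 ± 30.4), H2-K1 (35.2 ± 24.5), Tapbp (17.8 ± 6.21), Tap1 (9.59 ± 3.13), Erap1 (8.44 ± 0.84), H2-T23 (7.71 ± 5.48), Tap2 (3.72 ± 0.89), H2-Q4 (3.27 ± 0.89) and Nlrc5 (1.44 ± 0.55). In control, the order of CPM per kilobase was B2m (534 ± 123), H2-D1 (19.4 ± 5.06), Tapbp (11.6 ± 3.74), Erap1 (5.0 ± 1.01), H2-T23 (3.83 ± 1.51), H2-K1 (3.75 ± 1.46), Tap1 (2.56 ± 0.74), Tap2 (2.25 ± 0.52), Nlrc5 (0.14 ± 0.044) and H2-Q4 (0.058 ± 0.037) (SD, n = 4 each). In PUS10KO the library ranges of neighbours overlapped all along this order except between B2m and H2-D1 and between H2-Q4 and Nlrc5. In control the ranges were apart between B2m and H2-D1, Tapbp and Erap1, and Tap2 and Nlrc5. H2-K1 thus stood at the third place in PUS10KO and at the sixth in control. The lengths are those of GENCODE M21, which may not be the annotation behind the counts.

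The level of the class I genes also differed between libraries of 1 genotype, and in the same way for most of them. PUS10KO 1 was the highest PUS10KO library for 8 of the 10 genes, and PUS10KO 4 for the other 2, Tap2 and Tapbp. Control 1 was the highest control library for 7 of the 10, and control 2 the lowest for 9. Within a number, PUS10KO was higher than control for all 10 genes at all 4 numbers, with the smallest difference, 0.33 on the log2 CPM scale, for Tapbp at number 2. The difference for Nlrc5 was 3.70, 3.84, 2.96 and 3.20 at numbers 1 to 4, and that for H2-K1 was 3.78, 3.70, 2.48 and 2.54. For 6 genes, Nlrc5, Tap1, B2m, Erap1, H2-K1 and H2-D1, the differences at numbers 1 and 2 both exceeded those at numbers 3 and 4. Tap2 had nearly the same difference at each number, 0.67 to 0.76. The labels do not say what a number shares.

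**Figure D3:**
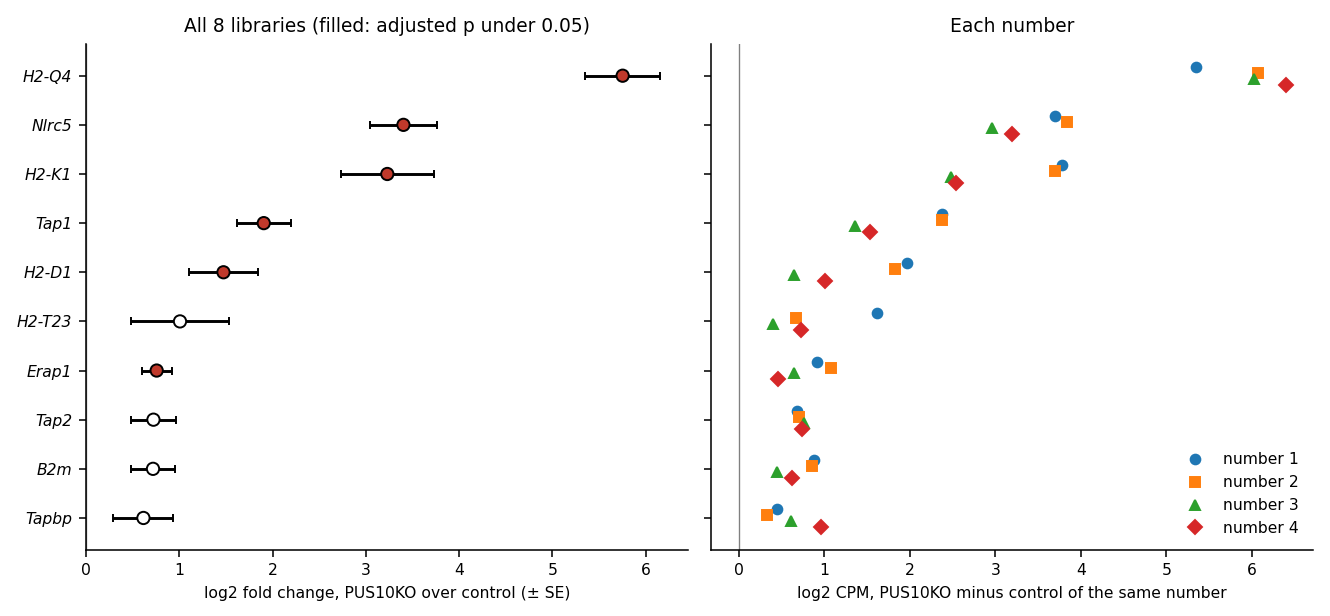
Left, log2 fold change of PUS10KO over control (x axis, ± SE, all 8 libraries) for the 10 genes, filled where the adjusted p was under 0.05; right, the difference in log2 CPM between PUS10KO and control libraries of the same number, 1 marker shape per number. All 40 differences at the right are above 0.

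Of the 10 genes 7 lie in or beside the MHC on chromosome 17 (GRCm38): Tapbp (33915899 to 33929292), H2-K1 (33996017 to 34000347), Tap1 (34187553 to 34197225), Tap2 (34203527 to 34216321), H2-D1 (35262730 to 35267499), H2-Q4 (35379617 to 35385290) and H2-T23 (36029773 to 36032855). The other tested genes between H2-K1 and H2-T23 that belong to none of the class I, class II and immunoproteasome lists numbered 60. Among them 1 rose and 2 fell, beside 13.0% called over all genes tested, and their median log2 fold change was -0.12. The gene that rose was C4b, a complement component with a near-identical copy beside it, which makes its counts uncertain (5.52 ± 3.24 CPM in PUS10KO and 0.62 ± 0.37 CPM in control, adjusted p = 0.00769). Those that fell were the chloride channel gene Clic1 (log2 fold change -0.50, adjusted p = 0.0258) and the sialidase gene Neu1 (log2 fold change -1.25, adjusted p = 0.0474). These 3 were named after their values had been seen. With the replicate block 2 rose and 18 fell of the 60, where 19.1% of all genes rose and 19.9% fell. Without the block, 0 fell when PUS10KO 1, PUS10KO 3 or control 3 was left out, and 1 fell when PUS10KO 2, PUS10KO 4, control 2 or control 4 was.

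**Figure D4:**
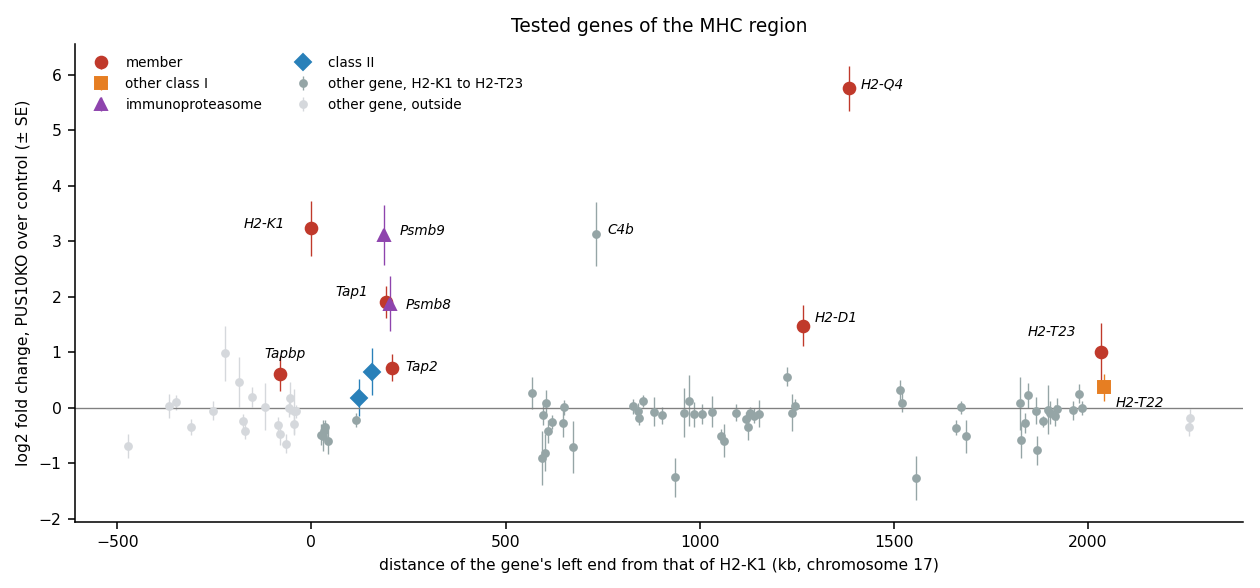
Log2 fold change of PUS10KO over control (y axis, ± SE) for each tested gene around the MHC, against its distance from H2-K1 (x axis, kb). The class I genes, Psmb8, Psmb9 and C4b stand above 0, among other genes of the region with a median of -0.12. Further genes of the plot also stand above 0, such as Angptl4 (0.98), H2-DMb1 (0.65) and Nfkbil1 (0.56), which did not pass the test without the replicate block.

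The wider pathway was followed in 9 lists of genes other than the 10, and these lists too were chosen with earlier results known. Of their 60 tested genes 6 rose and 2 fell, a share close to the 13.0% called over all genes tested. Among 5 genes of the immunoproteasome and its activator, which favour the cutting of class I peptides, 4 rose, none fell and 1 did not pass (median log2 fold change 0.98). Psmb9 overlaps Tap1 on the opposite strand over 212 bases, and the sources used here do not say how reads there were counted. Psmb9 had 3.29 ± 1.24 CPM in PUS10KO and 0.37 ± 0.24 CPM in control (log2 fold change 3.11, adjusted p = 0.00606), a call that no omission of 1 library ended. Psmb8 (log2 fold change 1.87, adjusted p = 0.0390), Psme1 (0.98, adjusted p = 0.0257) and Psme2 (0.90, adjusted p = 0.0398) kept their calls in 1, 3 and 2 of those fits: Psmb8 without PUS10KO 2, Psme1 without PUS10KO 1, PUS10KO 2 or control 4, and Psme2 without PUS10KO 2 or control 4. Limma voom, which called 12.7% of all genes, called 3 of the 5 and ended the call of Psmb8 (adjusted p = 0.0587). In the authors' deposited normalized values the log2 fold changes of Psmb9 and Psmb8 were 1.00 and 0.88. With the replicate block all 5 rose, where 19.1% of all genes rose.

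Class I-like molecules outside the MHC moved in both directions. Of 8 tested, 2 rose, 1 fell and 5 did not pass (median log2 fold change 0.20), where 5.90% of all genes rose and 7.11% fell. Ulbp1 and the Raet1 genes encode ligands of the activating receptor NKG2D of natural killer cells. Ulbp1 had 66.0, 66.2, 67.0 and 57.9 CPM in PUS10KO, against 14.0, 20.2, 8.35 and 7.90 CPM in control (log2 fold change 2.35, SE 0.29, adjusted p = 0.00132). Raet1e had 4.63, 3.14, 2.96 and 3.25 CPM in PUS10KO, against 15.7, 9.96, 11.3 and 13.7 CPM in control (log2 fold change -1.86, SE 0.23, adjusted p = 0.00112). The groups overlapped for neither gene, and no omission of 1 library ended either call. Raet1d rose (log2 fold change 1.03, adjusted p = 0.0374), with its call kept in 2 of 8 such fits, those without control 1 or control 3; the Raet1 genes are close copies of each other, so their values are uncertain. In the authors' deposited normalized values the log2 fold changes of Raet1e and Raet1d were -1.14 and 0.49. H60b, another ligand of that receptor, had 0 counts in each PUS10KO library, against 9, 11, 7 and 8 counts in control, too few for the filter on low counts. DESeq2, run without that filter, called 2 genes of this list as fallen, Raet1e and H60b, where 19.9% of all genes were called.

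The remaining lists held few calls by edgeR. Over all genes 13.0% were called. Of 7 peptidases that act on class I peptides 1 fell, the insulin-degrading enzyme gene Ide (105 ± 13.8 CPM in PUS10KO and 158 ± 18.9 CPM in control, log2 fold change -0.60, adjusted p = 0.0220). This call was kept in 3 of 8 fits that left out 1 library, those without PUS10KO 1, control 2 or control 3. With the replicate block 2 of the 7 rose and 2 fell, where 39.0% of all genes were called. DESeq2 called 1 that rose and 2 that fell (19.9% of all genes), and limma voom 1 that fell (12.7%). Of 11 loading chaperones and quality control factors edgeR called 0, 0 had an unadjusted p under 0.05, and DESeq2 and limma voom called 0 each (median log2 fold change -0.072). Their most abundant members were the chaperone genes Hspa5 (1723 ± 575 CPM in PUS10KO and 1887 ± 847 CPM in control) and Canx (1521 ± 45.8 CPM in PUS10KO and 1374 ± 177 CPM in control). This list had the same counts with the replicate block.

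Of 15 transcription factors of class I genes edgeR called 0, though 4 had an unadjusted p under 0.05 (median log2 fold change 0.26). DESeq2 called 4 that rose, limma voom 0, and the fit with the replicate block 6 that rose. Over all genes edgeR called 13.0%, DESeq2 19.9%, limma voom 12.7% and the block 39.0%, with 19.1% that rose. The most abundant of the 15, Nfkb1 and Creb1, had log2 fold changes of 0.33 and -0.13 (adjusted p = 0.0765 and 0.516). Nfkb1 had no overlap between genotypes, and it rose with the block (adjusted p = 0.0125) and by DESeq2 (adjusted p = 0.0056). The interferon-responsive factors Irf1, named after its values were seen, and Irf9 had log2 fold changes of 0.94 and 1.14 (adjusted p = 0.0793 and 0.0855). Both rose with the block (adjusted p = 0.000232 and 7.11e-05). Stat2 and Irf2 of the same list, also named after their values were seen, had 0.66 and 0.26 (adjusted p = 0.313 and 0.521). With the block Stat2 rose (adjusted p = 0.00424) and Irf2 did not pass (adjusted p = 0.267). Of 6 subunits of the Polycomb complex PRC2, a silencer of class I genes in some tumours, edgeR called 0 with 0 at an unadjusted p under 0.05, DESeq2 and voom called 0, and 2 rose with the block; the most abundant, Rbbp7 and Rbbp4, had log2 fold changes of 0.26 and -0.035, and Rbbp7 rose with the block (adjusted p = 0.0216).

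MHC class II genes present peptides from outside the cell and are a property of professional antigen-presenting cells. Those listed here had low levels or no row in the count table. Of 12 listed 3 were tested, and edgeR called 0, with 0 at an unadjusted p under 0.05 and 0 by DESeq2 or voom. H2-DMb1 had 2.27 ± 0.75 CPM in PUS10KO and 1.44 ± 0.68 CPM in control (adjusted p = 0.380, and it rose with the replicate block), and H2-DMa 1.75 ± 0.49 CPM in PUS10KO and 1.54 ± 0.47 CPM in control (adjusted p = 0.790). Of 3 tested checkpoint ligands, surface proteins that restrain immune cells, edgeR called 0 with 0 at an unadjusted p under 0.05 and 0 by DESeq2 or voom. For Cd47 the log2 fold change was 0.42 (adjusted p = 0.505), and it rose with the block, and Lgals9 had 56.8 ± 10.8 CPM in PUS10KO and 56.5 ± 16.9 CPM in control.

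Genes outside the 10 whose pattern over the 8 libraries came closest to theirs were found by the root mean square distance, in log2 CPM centred on each gene's own mean, from the median profile of the 10. Among the closest were Rnf213 (0.20), Ifih1 (0.23), Ddx58 (0.24), Irf9 (0.27), Prkar1b (0.28), Hcn3 (0.30) and Ryr1 (0.31). The median profile was higher in every PUS10KO library than in every control library, so closeness to it already selects for a genotype difference. The calls given here for genes found this way are therefore no independent test. Ddx58 and Hcn3 rose by edgeR (adjusted p = 0.0115 and 0.0146). Ifih1, Irf9, Prkar1b and Ryr1 did not pass (adjusted p = 0.0911, 0.0855, 0.0653 and 0.0816), though they rose with the replicate block. Of the 10 themselves, which are part of that median, H2-D1 (0.21) and Tap1 (0.26) were the closest. Nlrc5 (0.93) and H2-Q4 (1.88), whose fold changes were larger, were the farthest. Ifih1 and Ddx58 encode cytosolic RNA sensors, and Irf9 encodes an interferon-activated transcription factor subunit. Hcn3 summed to 68 counts in PUS10KO and 20 in control, and Ryr1 to 62 in PUS10KO and 24 in control, so their profiles rest on few reads. Rnf213, a large ubiquitin ligase, had 298 ± 130 CPM in PUS10KO and 121 ± 29.9 CPM in control (log2 fold change 1.31, adjusted p = 0.0230), with the call lost without control 2, 3 or 4 (adjusted p up to 0.0574).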

How the data were processed

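For 8 libraries the authors deposited raw counts per gene, as whole numbers. Their deposited normalized table holds values of 5.13 to 18.12, taken as log2, in which differences between numbers had been removed. Per the submitters' processing notes, STAR 2.7.8a and DESeq2 were used with mm10 (the assembly GRCm38); counter, strand setting, annotation and gene filter: not given in the sources used here. Positions and exon lengths came from GENCODE M21, matched by symbol (12048 rows) or synonym (148). The test was that of edgeR 4.0.16 in R 4.3.3 (filterByExpr, TMM, robust quasi-likelihood test, genotype as the only term, Benjamini-Hochberg over 11909 genes, threshold 0.05); it was tested on simulated data; SE is the log2 fold change divided by the root of F. Alternatives used DESeq2 1.42.0, limma 3.58.1 voom, other scalings, no filter, the replicate block, the deposited log2 values (limma with the block) and leaving out each library. Exact permutation tests used scipy 1.17.1.

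Deviations from the genotype means correlated across genes between both libraries of a number (r = 0.681, 0.722, 0.633 and 0.687, with at most 0.304, 0.042, 0.582 and 0.503 for another number). Only the fits with the replicate block treat libraries of a number as pairs. The main test and the exact permutation tests do not use this pairing. The pairing comes from the counts, not from the labels, and numbers 3 and 4 were parted less clearly. Libraries of 1 genotype differed by more than sampling noise (chi-square per degree of freedom at least 18.2). The genes and lists were chosen with earlier results of these data known. Named are the 10 genes, Pus10, in each of 9 pathway lists up to 4 called genes by lowest p or 2 by level, and the 8 closest in pattern, of which 1 is not reported here.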

Additional observations from a re-analysis of the deposited data

Results flagged for a closer look

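In 2 of 20 groups of 4 libraries (10 genes in both genotypes) 1 library stood far from the other 3, where chance gives about 1 in 20. H2-K1 had 210.8 CPM in PUS10KO 1, against 57.2 to 75.4 CPM in the other PUS10KO libraries, a gap of 0.881 of the whole range. H2-Q4 had 0.292 CPM in control 1, against 0.096 to 0.109 CPM in the other control libraries, a gap of 0.930 of the range that rests on 6 counts against 2 in each other library.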

How the results depend on the processing

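All 150 values of the 10 genes under the alternatives kept the direction of the reported ones, and the 6 calls held in 85 of 90. With the replicate block, and in the authors' deposited normalized values fitted with it, 10 of the 10 genes rose. With 1 library left out, 4 to 6 rose and 0 fell. Over all genes the main fit called 13.0%, DESeq2 19.9%, and fits without 1 library 8.46% to 11.1%. The block called 39.0% (19.1% rose, 19.9% fell), and the deposited values fitted with it 39.2%. All counts of calls below are to be read beside these shares. The deposited normalized values gave smaller log2 fold changes, by over 1.5 times for Nlrc5 (1.72), H2-Q4 (1.96) and H2-T23 (0.65). The block ended no call of the 10 genes, and its values stand beside the calls it changed. Scaling to total counts moved the median log2 fold change of all genes to 0.12 and called B2m besides (0.82, adjusted p = 0.0435). The summed heavy chain log2 fold change ran from 1.13 to 1.77 and that of Pus10 from -1.79 to -1.66 with 1 library left out. Of 60 tested genes in the 9 other pathway lists 6 rose and 2 fell. DESeq2 gave 11 and 5, the block 21 that rose, no filter on low counts 4 that fell, and fits without 1 library 2 to 5 and 1 to 2. Among the 60 other genes of the MHC region 1 rose and 2 fell; DESeq2 gave 2 and 7, the block 2 and 18, total counts 0 that fell, and fits without 1 library 1 that rose and 0 to 2 that fell. The causes were not tested. Uncalled genes near 0 changed sign: Rbbp4 gave 0.064 with total counts. With 1 library left out Rbbp4 ran from -0.11 to 0.019, Lgals9 from -0.13 to 0.24 and Hspa5 from -0.36 to 0.19. Leaving out 1 library changed no direction of the 6 count ratios. Low counts limit H2-Q4 (12 counts in control) and Psmb9 (30).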
